A study of Mus musculus with 2 samples.

Results

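The genes described here encode the digestive enzymes of the pancreatic acinar cell, proteins of its zymogen granules and the transcription factors that control them. The 37 members were chosen by symbol, all 37 were found among the 23284 symbols of the count tables, and they were grouped into 12 roles. RNA was sequenced from GFP-positive cells sorted from whole pancreata of mouse embryos that carry the NGN3-EGFP reporter, at e15.5, on a mixed C57BL6 background. All samples are of this 1 group, with 2 libraries (replicates 1 and 2), so nothing could be compared between conditions. The labels do not say how the reporter was built, whether embryos were pooled, or whether the libraries came from separate litters, so differences between them measure only these samples and may be technical. In such bulk libraries fewer cells of a type and less RNA per cell cannot be told apart.

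Acinar cells form the enzyme-secreting compartment of the pancreas. They store proteases as inactive zymogens together with lipases, amylase and ribonuclease in granules and release them toward the ducts. Acinar genes are driven by PTF1, a complex of the bHLH protein PTF1A, an E protein, and RBPJ or its pancreas-restricted relative RBPJL. This complex binds an E-box and a nearby RBPJ-type word. Endocrine cells, by contrast, arise from embryonic epithelium that switches on Neurog3, the gene named in the reporter.

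Replicate 1 held 12495143 counted reads and replicate 2 held 12043734, and the ribosomal RNA precursor Rn45s took 5.28% and 3.73% of them. Levels are in CPM, that is, reads divided by the library total after TMM scaling, set to a common size. Neurog3 stood at 736 and 551 CPM in replicates 1 and 2, and 10 of 10 endocrine factors reached 1 CPM in both libraries, as did 8 of 10 ductal markers. Of 10 mesenchymal markers, 4 did, and their summed level was 361 CPM in replicate 1 against 96.8 in replicate 2. Of 8 blood and endothelial markers, 2 did, with sums of 72.1 and 12.2 CPM. The globin genes Hbb-b1 and Hba-a1 had no read, but Hba-a1 shares 72.4% of its words with Hba-a2, and Beta-s, another beta globin gene named here after its values were seen, averaged 10.6 CPM.

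The acinar genes made up a small share of each library, and a few of them held most of it. They took 0.256% of the reads counted in replicate 1 (Clopper-Pearson 95% interval 0.253 to 0.259) and 0.178% of those in replicate 2 (0.175 to 0.180). Ctrb1, Pnliprp1, Clps and Cpa1 together held 90.1% of the acinar reads in replicate 1 and 89.4% in replicate 2. Ctrb1 alone held 51.4% and 55.8%. Of the 37 genes, 16 reached 1 CPM in both libraries, 8 reached it in only 1 of them and 13 in neither, including 8 with no read at all. The plot of levels by role shows that the same role could hold both an abundant gene and one without reads.

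**Figure D1:**
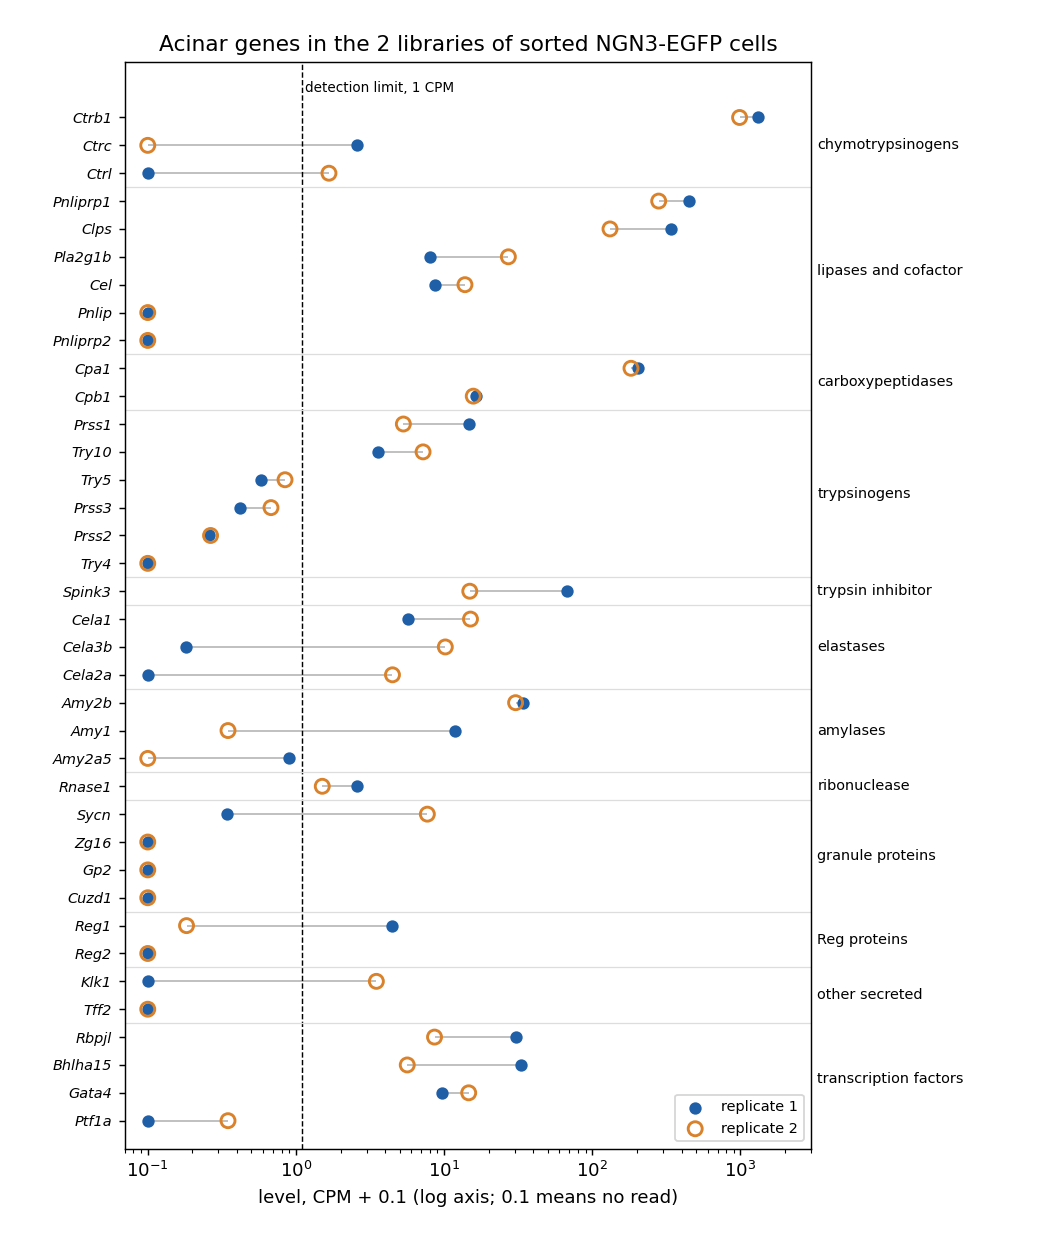
Level of each of the 37 acinar genes in replicate 1 (filled) and replicate 2 (open), in CPM plus 0.1 on a log axis, grouped by role; points at 0.1 had no read and the dashed line is the limit of 1 CPM. Ctrb1 stands highest in both libraries at 1321 and 986 CPM, and 8 genes lie at 0.1 in both.

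The promoters of Ctrb1, Pnliprp1 and Cpa1, which are among the highest members, and of 3 members discussed further on, are shown because the words that PTF1 recognises can be read in some of them. Of the 37 genes, 29 had a window in the RefSeq promoter table (build GRCm38.p6), 300 bases long and reaching from 250 bases before to 50 bases after the annotated start. The 250 bases before the start are printed, 5′ to 3′ on the strand of the gene. Capitals mark the E-box CANNTG, the RBPJ-type word TGGGAA and the GATA-type word AGATAA on either strand, where they lie wholly within the printed bases.
Ctrb1, chr8:111691011-111691260, minus strand: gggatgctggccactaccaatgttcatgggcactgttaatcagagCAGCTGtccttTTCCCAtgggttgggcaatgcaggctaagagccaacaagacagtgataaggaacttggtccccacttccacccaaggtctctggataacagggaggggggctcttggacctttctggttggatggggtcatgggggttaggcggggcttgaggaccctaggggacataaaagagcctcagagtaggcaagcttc
Pnliprp1, chr19:58728637-58728886, plus strand: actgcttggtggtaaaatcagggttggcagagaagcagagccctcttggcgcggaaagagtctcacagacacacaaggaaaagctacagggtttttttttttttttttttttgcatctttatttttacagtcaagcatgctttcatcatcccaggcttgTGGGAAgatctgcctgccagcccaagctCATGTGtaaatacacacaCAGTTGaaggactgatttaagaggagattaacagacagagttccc
Cpa1, chr6:30638968-30639217, plus strand: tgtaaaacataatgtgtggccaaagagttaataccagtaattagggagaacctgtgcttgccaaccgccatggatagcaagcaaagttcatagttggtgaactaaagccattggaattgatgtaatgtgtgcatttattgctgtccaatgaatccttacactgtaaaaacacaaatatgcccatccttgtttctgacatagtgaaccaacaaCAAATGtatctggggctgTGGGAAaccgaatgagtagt
Rbpjl, chr2:164402944-164403193, plus strand: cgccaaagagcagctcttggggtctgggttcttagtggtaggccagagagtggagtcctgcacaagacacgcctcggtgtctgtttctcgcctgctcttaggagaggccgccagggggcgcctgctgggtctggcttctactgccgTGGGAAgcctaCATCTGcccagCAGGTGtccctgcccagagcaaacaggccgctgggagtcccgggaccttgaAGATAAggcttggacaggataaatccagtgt
Cela1, chr15:100687921-100688170, minus strand: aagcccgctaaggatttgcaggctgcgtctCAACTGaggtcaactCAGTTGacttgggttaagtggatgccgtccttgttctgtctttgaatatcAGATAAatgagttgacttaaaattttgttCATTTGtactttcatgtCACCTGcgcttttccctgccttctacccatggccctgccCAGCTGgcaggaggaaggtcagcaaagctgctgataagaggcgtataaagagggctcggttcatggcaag
Cela3b, chr4:137430521-137430770, minus strand: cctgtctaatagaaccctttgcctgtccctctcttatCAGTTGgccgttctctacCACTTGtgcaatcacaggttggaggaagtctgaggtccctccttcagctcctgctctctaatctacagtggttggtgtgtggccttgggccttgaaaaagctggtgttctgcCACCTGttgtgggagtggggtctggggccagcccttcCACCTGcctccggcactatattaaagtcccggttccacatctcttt

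In the Ctrb1 window the single E-box and the RBPJ-type word began 11 bases apart, and in the window of Rbpjl the nearest pair also began 11 bases apart. In Cpa1 the nearest pair began 18 bases apart and in Pnliprp1 28 bases apart. Over the 14 members with both words, the nearest pair began from 4 bases apart in Reg2, which had no read, to 156 in Amy1. In Reg1, with 54 and 1 reads, it began 12 bases apart. Over whole windows, TGGGAA on either strand was found in 18 of 29 members (62.1%), against 28.3% of the 27025 genes with a window. The longer TTTCCCA, whose reverse strand contains TGGGAA, was found in 6 of 29 (20.7%) against 9.16%. CANNTG was found in 24 of 29 (82.8%) against 75.0%, and both CANNTG and TGGGAA in 14 of 29 (48.3%) against 22.2%. AGATAA was found in 8 of 29 (27.6%) against 12.7%, and TATAAA, added after the other words, in 13 of 29 (44.8%) against 15.7%. These are matches of letters in RefSeq sequence and not measured binding sites. Members without reads also held such words: Gp2 and Reg2 each had 2 matches of TGGGAA.

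**Figure D2:**
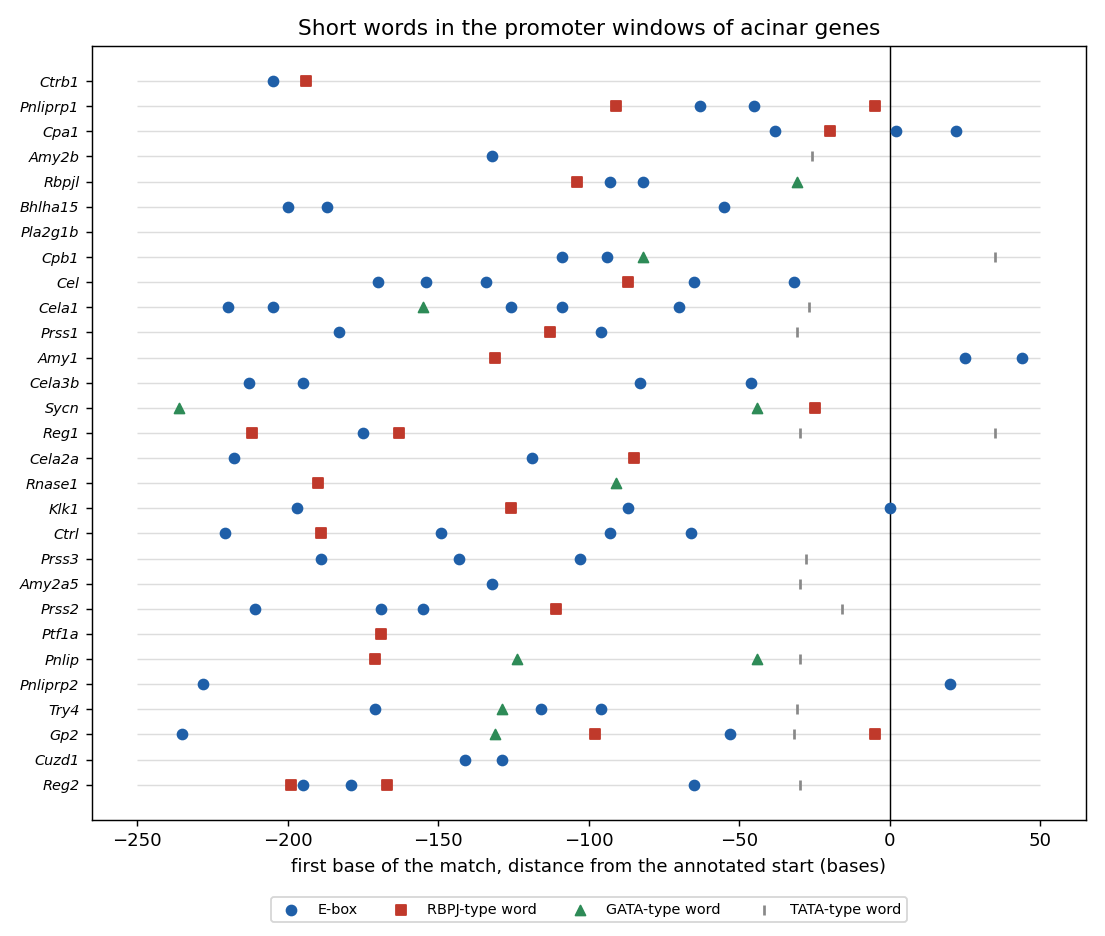
Position of the first base of each match, in bases from the annotated start, in the windows of 29 acinar genes, ordered from the highest mean level at the top; Amy1 has more than 1 window and its first is drawn. The legend names the words spelled out in the text, and matches of the RBPJ-type word lie at high and at unread genes alike.

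Among the chymotrypsinogens, precursors of proteases that cut after large hydrophobic residues, reads came nearly all from Ctrb1. Its level was 1321 CPM in replicate 1, with a counting interval of 1301 to 1341, against 986 CPM in replicate 2, with 968 to 1004, and the mean was 1153 ± 237 CPM (SD, n = 2). By reads it was the 41st most abundant gene in replicate 1 and the 61st in replicate 2. Per kb of exon it exceeded Neurog3 3.15-fold and 3.14-fold in replicates 1 and 2. Both genes were lower in replicate 2, by 1.34-fold for Ctrb1, and their ratio was nearly the same in the libraries. If the reporter replaces a Neurog3 allele, which the labels do not state, the Neurog3 level includes that effect. Ctrb1 lay below the insulin gene Ins1 per kb, at 0.191 and 0.0962 times the level of Ins1. The related Ctrl had 0 reads in replicate 1 and 19 in replicate 2. Ctrc, which encodes chymotrypsin C, a protease that acts on trypsinogen, had 31 reads in replicate 1 and 0 in replicate 2. Ctrb1, Ctrl and Ctrc have sequences of their own: 100%, 100% and 99.5% of their 25-base words are unique to them.

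Genes of fat digestion were the next largest source of acinar reads, with 31.4% of them in replicate 1 and 25.6% in replicate 2. Pnliprp1, a relative of pancreatic lipase, had 450 CPM in replicate 1 against 280 in replicate 2 (365 ± 120 CPM, SD, n = 2). Clps, or colipase, which anchors lipase on fat droplets coated with bile salts, was at 340 and 132 CPM (236 ± 147 CPM). By reads Clps lay below Pnliprp1, at 0.755 and 0.469 times its count, but per kb of exon it lay above it by 2.00-fold and 1.24-fold, since its transcript is short. Pla2g1b, a secreted phospholipase, had 7.96 CPM in replicate 1 against 27.0 in replicate 2. Cel, the lipase activated by bile salts, was at 8.60 and 13.7 CPM. These last were higher in replicate 2, whereas Pnliprp1 and Clps were higher in replicate 1.

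Pnlip, the main triglyceride lipase of the adult pancreas, had no read in either library, and neither had Pnliprp2. On chromosome 19 of the RefSeq assembly these are the coding genes next to Pnliprp1 on each side, with 0 coding genes between them. Pnliprp1 had 5604 and 3393 reads while both neighbours had 0. A count of 0 allows up to 3 reads, or 0.241 CPM in replicate 1 and 0.248 CPM in replicate 2, counting error only. Their sequences are distinct, with 99.5% of the words of Pnlip and 100% of those of Pnliprp2 unique to the gene.

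The carboxypeptidases differed little between libraries. Cpa1, which removes hydrophobic residues from the ends of peptides and also marks the tips of the early pancreatic epithelium, had 203 CPM in replicate 1 against 182 in replicate 2 (193 ± 15.0 CPM, SD, n = 2). Cpb1, which removes basic residues, was at 16.2 and 15.6 CPM (15.9 ± 0.434 CPM). Per kb of exon Cpa1 exceeded Cpb1 21.5-fold and 20.0-fold in replicates 1 and 2. It exceeded Sox9, a factor of ductal and progenitor epithelium, 6.03-fold and 5.42-fold. Their ratio to each other and to Sox9 was thus alike in the libraries, although Clps to Cpa1 moved from 4.33-fold to 1.87-fold.

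Trypsinogen reads were few. The 6 members that encode trypsin precursors summed to 19.1 and 13.8 CPM in replicates 1 and 2, which was 0.745% and 0.781% of the acinar reads. Prss1 was at 14.7 and 5.21 CPM and Try10 at 3.46 and 7.11 CPM, so they differed in opposite directions. Try5 had 6 and 9 reads, Prss3 had 4 and 7, Prss2 had 2 and 2, and Try4 had none. These genes lie in a cluster on chromosome 6 and share sequence: the share of unique words was 12.1% for Try4, 20.2% for Prss3, 25.5% for Prss1, 29.9% for Try5, 34.2% for Try10 and 68.1% for Prss2. Prss1 shares 60.6% of its words with Gm5771, a gene of the same cluster outside the members, which had 39 and 43 reads. How the authors counted reads that map to several genes is not stated, so both the low counts and the split between these genes are uncertain. Spink3, the secreted inhibitor that blocks trypsin within the pancreas, has 100% of its words to itself. It had 67.2 CPM in replicate 1 against 14.8 in replicate 2 and was 4.54-fold higher in replicate 1. Per kb of exon it was above Prss1 by 5.05-fold and 3.14-fold.

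In replicate 2 all 3 elastases were higher, by an exact binomial test that is described further on. It called 44.1% of all genes tested in the same direction. Cela2a and Cela3b reached the 10 reads that it needs only through replicate 2, so this count is a description. Cela1 had 5.63 CPM in replicate 1 against 15.0 in replicate 2. Cela3b had 1 read in replicate 1 and 122 in replicate 2, a ratio of 125-fold with an exact 95% counting interval of 22.1 to 4996. Cela2a had 0 reads in replicate 1 and 53 in replicate 2, or 18.2-fold higher when the 0 is set to 3 reads for the library. This ratio leaves out the counting error of the 53 reads and is not a lower limit. Cela3b shares 49.1% of its words with Cela3a, for which no count was used here. As a group the elastases held 0.222% of acinar reads in replicate 1 and 1.66% in replicate 2.

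Of the amylases, which digest starch, Amy2b had 34.1 CPM in replicate 1 against 30.3 in replicate 2 (32.2 ± 2.71 CPM, SD, n = 2). Amy1, the form made in salivary gland and liver, was at 11.7 and 0.248 CPM, or 146 and 3 reads, a ratio of 47.3-fold with a counting interval of 15.9 to 232. Amy2a5 had 10 reads in replicate 1 and 0 in replicate 2. The pancreatic amylase genes are copies of each other, and 32.4% of the words of Amy2b and 28.8% of those of Amy2a5 are unique, against 88.1% for Amy1. The levels of Amy2b and Amy2a5 and the split between them are therefore as uncertain as those of the trypsinogens. Rnase1, the pancreatic ribonuclease, had 31 and 17 reads, at 2.49 and 1.41 CPM.

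Proteins of the granule and its membrane were largely without reads. Gp2, the main glycoprotein of the zymogen granule membrane, Zg16, a granule lectin, and Cuzd1, another granule membrane protein, had none in either library. Sycn, or syncollin, had 3 reads in replicate 1 and 92 in replicate 2, a ratio of 31.5-fold with a counting interval of 10.5 to 156. Of the Reg proteins, small secreted lectins, Reg1 had 54 reads in replicate 1 and 1 in replicate 2, and its neighbour Reg2 had none. Klk1, tissue kallikrein, had 0 reads in replicate 1 and 41 in replicate 2, and 43.8% of its words are unique. Tff2, a trefoil peptide of the stomach mucosa, had none. Of 6 gastric markers 4 had no read in either library, while Atp4a had 3 and 124 reads and Pgc had 40 and 0.

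**Figure D3:**
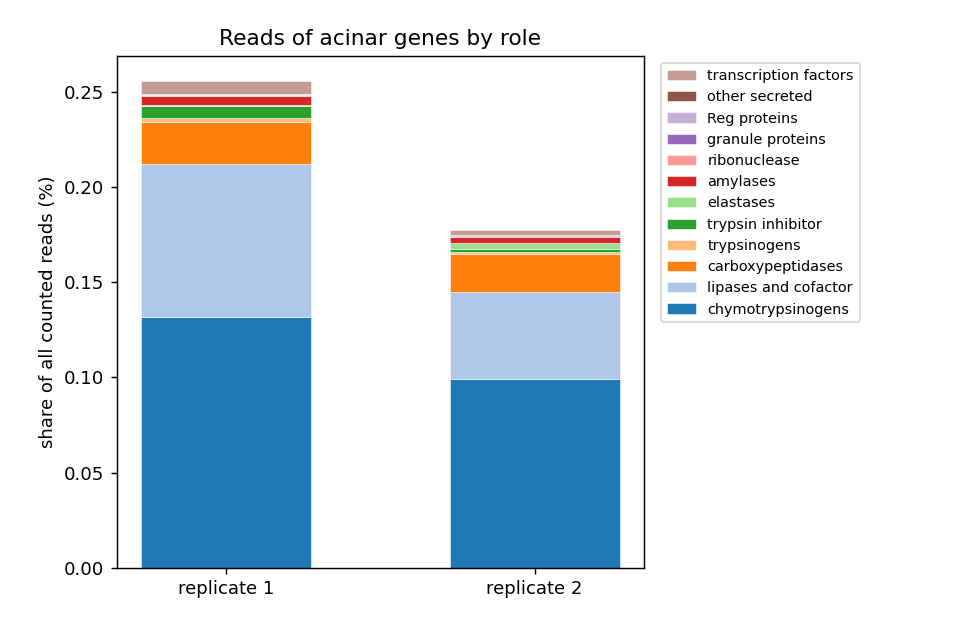
Share of all counted reads held by the acinar genes in each library, in percent, stacked by role. Chymotrypsinogens (0.132% and 0.0992%) and lipases with their cofactor (0.0803% and 0.0455%) make up most of both bars, and the transcription factors 0.0073% and 0.0029%.

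Of the 4 transcription factors, 3 were read in both libraries and Ptf1a, the bHLH subunit of PTF1, hardly at all. Ptf1a had 0 reads in replicate 1 and 3 in replicate 2, and 38.2% of its words are shared with its antisense gene Ptf1aos. Rbpjl had 30.5 CPM in replicate 1 against 8.51 in replicate 2. Bhlha15, also called Mist1, which organises the secretory apparatus of acinar cells, was at 33.1 and 5.54 CPM. Gata4, a factor of early pancreas and acinar cells, was at 9.65 and 14.5 CPM. Rbpjl and Bhlha15 were thus higher in replicate 1, by 3.59-fold and 5.98-fold, and Gata4 higher in replicate 2. Per kb of exon Neurog3 exceeded Rbpjl 38.4-fold in replicate 1 and 103-fold in replicate 2.

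Levels of the enzyme genes did not lie on one side of those of their regulators. Per kb of exon and on a log2 scale with a prior count of 2, the median of the 24 enzymes and cofactor was 0.78 below the median of the 4 factors in replicate 1, a difference of -0.78, and 1.05 above it in replicate 2. With genes at 0 set to 3 reads the differences were -0.83 and 1.05. By sum the enzymes and cofactor held 94.4% and 96.9% of the acinar reads and the factors 2.85% and 1.63%. The direction between the medians was opposite in the libraries, and over both libraries the log2 difference was 0.13 per kb and -1.50 by CPM, which is not corrected for length. An exact permutation of 2 paired libraries cannot go below p = 0.5.

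**Figure D4:**
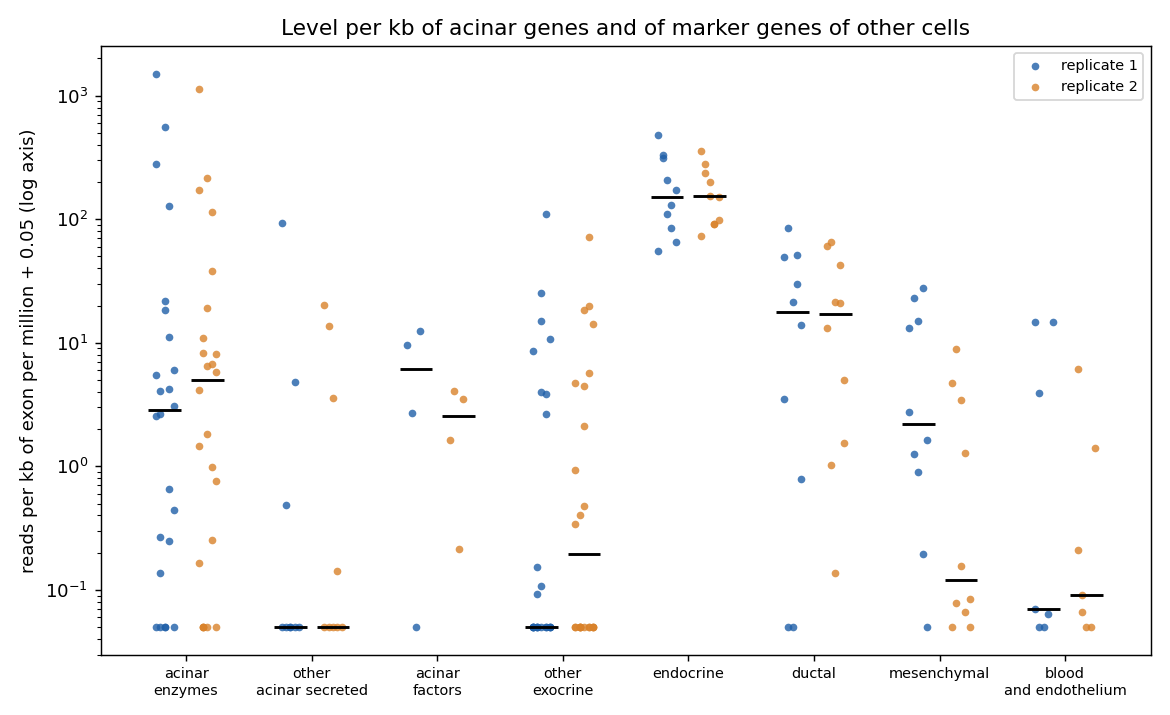
Level in CPM per kb of exon, plus 0.05 on a log axis, of acinar genes and of marker genes of other cells in replicate 1 (left in each pair) and replicate 2 (right), with black bars for the medians. Acinar enzymes span the widest range, with Ctrb1 at 1504 and 1123, above every endocrine factor shown, and enzymes at the bottom without reads.

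Other genes of exocrine cells, from a list of 25 of which 24 were measured, also held a few abundant genes and many without reads. In both libraries 7 of 24 reached 1 CPM and 11 had no read. Of those without reads, the amylase copies Amy2a2, Amy2a3 and Amy2a4 have 0% unique words, 1810009J06Rik has 12.1% and Gm10334 has 22.4%, so their counts of 0 depend on how shared reads were treated. Rab3d, a small GTPase of secretory granules, had 1244 reads in replicate 1 and 875 in replicate 2, a mean of 86.2 CPM. Nr5a2, a nuclear receptor of acinar cells and embryonic pancreas, was at 21.0 and 31.7 CPM, and Nupr1, a stress-response gene, at 8.92 and 11.7 CPM. Cckar, the receptor through which cholecystokinin triggers enzyme release, had 55.1 CPM in replicate 1 against 1.57 in replicate 2. By the test described next, 4 of the 12 tested were higher in replicate 1 and 7 in replicate 2, against 41.7% and 44.1% of all genes tested. Some of them, mostly of the 7, reached the 10 reads that the test needs only through the library where they were higher. These counts are therefore a description.

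The libraries differed in most acinar genes, as they did in most genes. Each gene with at least 10 reads over both libraries was compared by a two-sided exact binomial test with Benjamini-Hochberg adjustment at 0.05 over all 13416 genes tested, which compares these libraries and not conditions. Its p-values treat each read as a separate molecule and so cover counting error only, not the spread between samples. Of the 37 members 27 could be tested. Of these, 12 were higher in replicate 1, against 41.7% of all genes tested, 10 were higher in replicate 2, against 44.1%, and 5 did not pass. In either direction 22 of 27, or 81.5%, passed, against 85.8% of all genes, so the count does not set the acinar genes apart. A gene read almost entirely in 1 library could enter this test only through that library, so the count is a description. The median log2 ratio, replicate 2 over replicate 1, was -0.16 for the 27 members and 0.04 for all genes tested.

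Higher in replicate 1 were Ctrb1, Pnliprp1, Clps, Cpa1, Ctrc, Prss1, Amy1, Amy2a5, Spink3, Reg1, Bhlha15 and Rbpjl. Higher in replicate 2 were Ctrl, the elastases Cela1, Cela2a and Cela3b, Try10, Cel, Pla2g1b, Sycn, Klk1 and Gata4. Cpb1, Prss3, Try5, Amy2b and Rnase1 did not pass. Among members with at least 100 reads over both libraries, Amy1 (-4.86) and Bhlha15 (-2.55) had the log2 ratios farthest toward replicate 1. Farthest toward replicate 2 were Cela3b (log2 5.40) and Pla2g1b (1.74). Amy1 had only 3 reads in replicate 2 and Cela3b only 1 in replicate 1. Both passed the limit through the library where they were higher, so this order is a description. For Clps the log2 ratio was -1.37 (adjusted p = 1.15e-253, exact binomial), and for Ctrb1 it was -0.42 (adjusted p = 7.12e-131). Cpa1, at -0.16, also passed (adjusted p = 0.000227, exact binomial), whereas Amy2b, at -0.17 with fewer reads, did not (adjusted p = 0.115).

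From a mean of 1 CPM upward, the size of these differences followed the level, as it did over all genes. Between 1 and 10 CPM 9 of 10 tested members differed over 2-fold, against 74.0% of all genes at that level. From 10 to 100 CPM 5 of 9 did, against 42.9%, and from 100 to 1000 CPM 1 of 3, Clps, against 12.2%. Ctrb1, above 1000 CPM, did not, and neither did any of the 58 genes there. Of the tested members averaging under 1 CPM, Ctrl and Amy2a5 differed over 2-fold, while Prss3 and Try5 did not. With a 2-fold difference also required, 9 members were higher in replicate 1 (22.1% of all genes) and 8 in replicate 2 (25.6%). Beside the members higher in replicate 1, 9 of 9 tested mesenchymal markers were also higher there, among them the collagen gene Col1a1 at 77.2 and 27.5 CPM. So were 3 of 3 tested blood and endothelial markers, from a list of 8. The exact binomial test called 41.7% of all genes tested in that direction. Some of these markers, such as Nkx3-2 with 58 and 0 reads, could enter it only through replicate 1. Blood and endothelial markers with too few reads to test included Pecam1 (1 and 8 reads), Ptprc (0 and 1) and Kdr (1 and 0). The ductal markers summed to 694 and 697 CPM. Of 9 tested, 4 were higher in replicate 1, such as Krt19 at 21.9 and 7.77 CPM, against 41.7% of all genes tested. Another 4 were higher in replicate 2, such as Bicc1 at 19.1 and 72.9 CPM, against 44.1%. These counts do not set the ductal markers apart. The part of these cells in the acinar differences was not tested.

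**Figure D5:**
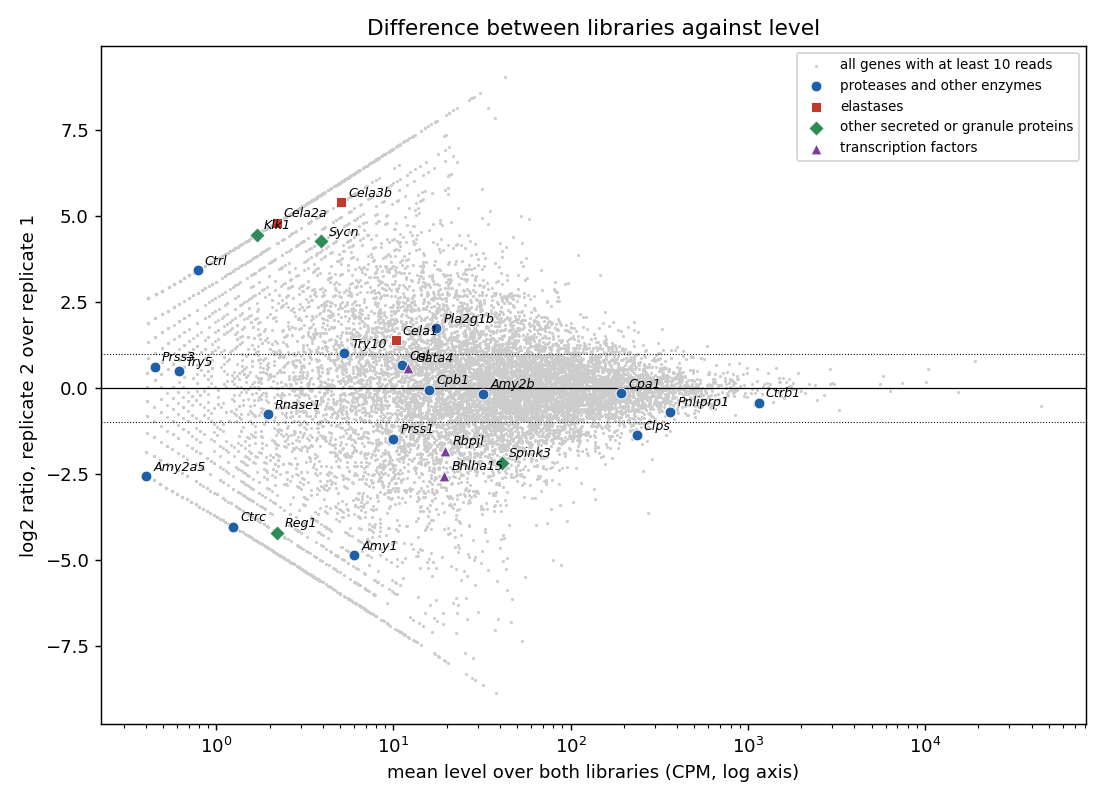
Log2 ratio of replicate 2 over replicate 1, with a prior count of 2, against the mean level in CPM on a log axis, for all 13416 genes tested (grey) and the 27 acinar genes tested (coloured by kind). Dotted lines mark a 2-fold difference; Ctrb1 (-0.42) and Cpa1 (-0.16) lie within them, while Cela3b (log2 5.40) and Amy1 (-4.86) lie far outside among other genes of low level.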

How the data were processed

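RNA-seq was made from sorted cells in 2 libraries of 1 group. Values in the authors' deposited tables are unnormalised counts of reads, 1 whole number for each gene symbol. Build mm9 and the tools DESeq, Cufflinks 2.0.2, TopHat2 2.0.4, cutadapt and FastQC are listed, without roles, in the submitters' processing notes. Not given in the sources used here are the counter, its annotation and strand setting, and how reads mapping to several genes were treated.

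Counts were scaled with TMM factors (edgeR 4.0.16, R 4.3.3). A gene was detected at 1 CPM or more. The binomial test (scipy 1.17.1) was tried on simulated counts that held counting error only. That is also what the test assumes, so the trial says nothing about spread between samples. Intervals are exact Clopper-Pearson intervals at 95%; they, the limit of 3 reads and the binomial p-values describe counting error alone, because PCR copies cannot be told from separate molecules here. Exon lengths and 25-base words come from the basic set of GENCODE M21, which is not the authors' build, and 97.8% of symbols were matched (Spink3 through its other symbol). Promoters come from RefSeq.

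Members and lists were chosen with earlier results of these data known. Named were all members, with values in each library where at least 50 CPM was reached. Among members of at least 100 reads over both libraries, the 2 farthest toward each library were also named. So were other exocrine genes averaging 10 CPM or more. A gene that meets this rule is not reported here and stays in the counts of its list. Genes outside this rule, such as Ins1, Sox9, Col1a1, Krt19, Bicc1 and the gastric genes, were chosen after their values were seen. Alternatives were plain totals, DESeq2 1.42.0 size factors, totals without Rn45s, other limits, filters and prior counts, other length sets, members with shared words left out, and each replicate left out.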

Additional observations from a re-analysis of the deposited data

How the results depend on the processing

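No paired analysis was possible because there is only 1 group. The number of members detected in both libraries at 1 CPM or more was 16 under every scaling run and also at a limit of 0.5 CPM, 14 at a limit of 5 CPM, and 19 to 21 with 1 library alone. The members' share of all reads was 0.178% to 0.256% with 1 library alone, 0.227% without Rn45s in the totals and 0.212% without the 8 members that share most of their words, against 0.217%. The share of acinar reads from Ctrb1 was 51.4% to 55.8% with 1 library alone and 59.6% per kb of exon. With at least 100 reads over both libraries, 6 members were higher in replicate 2 and not 10, since fewer genes were tested. In replicate 1, 9 were higher and not 12. The share of all genes called at this filter is not given here, so these counts cannot be set against it. The median log2 ratio of members was 0 with no count filter, which adds the genes without reads, and -0.17 to -0.15 under the other alternatives. The median of enzymes minus that of factors was 0.13 over both libraries, -0.78 to 1.05 with 1 library alone and -1.50 by CPM, which is not corrected for length. The mean levels of 2 members, Cpb1 and Prss2, moved by more than their SD without Rn45s in the totals, to 16.7 and 0.171 CPM. Levels under 10 CPM rest on few reads and are uncertain for single genes.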
